A study of Rattus norvegicus with 6 samples.

Results

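Organic anion and cation transporters move drugs, toxins, urate and metabolic waste across the epithelium of the renal proximal tubule. A set of 9 such genes was followed in glomerular isolates of rats: Slc22a2, Slc22a5, Slc22a6, Slc22a7, Slc22a8, Slc22a12, Slco4c1, Slc47a1 and Abcc2. A gene was taken as its brightest probeset over all arrays, among probesets annotated with exactly 1 gene symbol. By this rule 8 of the 9 genes were measured, each by 1 probeset, out of 14506 genes in all. Slc22a5, the carnitine transporter, appears only on a probeset that also carries Slc22a4 and Slc22a21, and it was not analysed here.

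The study asked which genes are expressed by parietal epithelial cells (PECs), the cells that line Bowman's capsule around the glomerular tuft. RNA from 3 PEC-enriched isolates and 3 PEC-deprived isolates was hybridised to whole-transcript rat arrays, 1 array per preparation. PEC-enriched isolates were capsulated glomeruli held back on the 90 µm sieve, and PEC-deprived isolates were decapsulated glomeruli that collected on the 75 µm sieve. All animals were male Sprague-Dawley rats without injury or treatment, prepared one rat at a time, and no cells were cultured. The methods name 3 animals, with individual rats for each preparation, while there are 6 arrays, and neither they nor the labels say which isolates share a rat. Neither isolate is a pure cell population, and the study counted tubular fragments in preparations of both. The highest share was in a PEC-deprived preparation, while the other PEC-deprived preparations had lower shares than every PEC-enriched preparation. The labels do not tie these preparations to arrays.

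Values are log2 expression from RMA, and a log2 fold change is the PEC-enriched mean minus the PEC-deprived mean. Array medians lay between 6.69 and 6.75, and correlations between arrays between 0.982 and 0.994. Over all 29215 probesets, the smallest limma adjusted p was 0.152, so none passed the threshold of 0.01 (0% of genes called), whereas a regularised Bayesian test, after the kind the methods name, called 334. Of 9 podocyte markers measured, 4 had higher and 5 lower means in PEC-enriched isolates (median log2 fold change -0.00325), and the furthest from 0 was Tcf21 at 0.41, without overlap (limma adjusted p = 0.349). Means were higher in PEC-enriched isolates for 12 of 13 parietal cell markers (median 0.70) and for all 8 markers of the thick ascending limb (median 1.74). Precision is limited by the number of arrays, and signal over background is unknown. In a bulk isolate, more cells of a type and more RNA per cell cannot be told apart.

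Secretion of organic ions by the proximal tubule works in 2 steps. Carriers of the basolateral membrane take ions up from blood, among them the organic anion transporters OAT1 and OAT3 and the cation transporter OCT2. Carriers and pumps of the apical membrane, such as MATE1 and MRP2, pass them on into the tubular fluid. OAT1 and OAT3 exchange their substrates for dicarboxylates, which sodium-coupled carriers return to the cell. URAT1 works in the other direction and takes urate back from the fluid. In human cells, the nuclear receptor HNF4 is known to act on promoters of several of these genes.

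Promoter windows, from 250 bases before to 50 bases after the annotated start, were taken from RefSeq on the GRCr8 assembly. They were found for 7 of the 9 genes, and Slc22a6 and Slc47a1 had no entry. The 4 windows below belong to Slc22a8, Slc22a2, Slc22a12 and Abcc2, all with higher means in PEC-enriched isolates, Abcc2 by the least. None of these genes was called, and the windows only describe their start regions. Those of Slc22a5, Slc22a7 and Slco4c1 are not shown. A capital marks the first base of the annotated transcript. The windows lie at chr1:214927034-214927333 (plus strand), chr1:50710970-50711269 (minus strand), chr1:213281331-213281630 (minus strand) and chr1:252613625-252613924 (plus strand).
Slc22a8: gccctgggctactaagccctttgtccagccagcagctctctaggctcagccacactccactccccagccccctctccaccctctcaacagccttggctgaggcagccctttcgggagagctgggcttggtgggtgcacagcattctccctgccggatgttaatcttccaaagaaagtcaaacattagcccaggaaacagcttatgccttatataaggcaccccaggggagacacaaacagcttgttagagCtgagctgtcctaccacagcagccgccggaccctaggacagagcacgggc
Slc22a2: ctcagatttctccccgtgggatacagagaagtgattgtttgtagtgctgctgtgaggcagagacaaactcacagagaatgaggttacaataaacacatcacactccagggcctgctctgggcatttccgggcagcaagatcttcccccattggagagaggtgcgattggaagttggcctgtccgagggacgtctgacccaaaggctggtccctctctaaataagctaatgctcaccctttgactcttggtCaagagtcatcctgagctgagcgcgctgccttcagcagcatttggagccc
Slc22a12: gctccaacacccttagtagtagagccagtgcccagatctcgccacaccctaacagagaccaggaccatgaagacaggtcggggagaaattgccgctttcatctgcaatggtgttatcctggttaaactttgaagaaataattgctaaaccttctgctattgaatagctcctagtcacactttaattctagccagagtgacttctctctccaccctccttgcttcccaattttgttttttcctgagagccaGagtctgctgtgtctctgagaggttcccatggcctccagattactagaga
Abcc2: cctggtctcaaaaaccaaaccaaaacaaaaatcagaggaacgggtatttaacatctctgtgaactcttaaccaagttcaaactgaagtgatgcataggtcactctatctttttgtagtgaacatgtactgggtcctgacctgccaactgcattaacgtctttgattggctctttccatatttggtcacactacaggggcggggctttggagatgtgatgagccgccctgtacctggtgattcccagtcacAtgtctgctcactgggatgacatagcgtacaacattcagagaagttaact
The HNF4 element CAAAGTCCA, searched on both strands, was in none of the 7 windows, and 0.391% of all 33469 windows of the same length held it. The letters TATAAA, a form of the TATA box, were in none of the 7 either (14.2% of all windows). Other forms of the box were not searched. Absence of these letters says nothing of the factors. Slc22a8, Slc22a2 and Slc22a12 had higher means in PEC-enriched isolates, as did Abcc2, by 0.14 on the log2 scale.

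Among the basolateral anion carriers, Slc22a6 encodes OAT1, the main uptake route of the kidney for para-aminohippurate. Its log2 expression was 8.94, 9.70 and 8.84 on PEC-enriched arrays 1, 2 and 3, against 8.83, 7.58 and 7.999 on the PEC-deprived arrays. The groups did not overlap, but the lowest PEC-enriched and the highest PEC-deprived array were only 0.00568 apart. PEC-enriched isolates averaged 9.16 ± 0.474 and PEC-deprived isolates 8.14 ± 0.636 (SD, n = 3 each). The log2 fold change was thus 1.02, or 2.03-fold (standard error 0.332, 95% interval 0.26 to 1.79). It did not pass in limma (adjusted p = 0.332).

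Slc22a8 encodes OAT3, which carries steroid conjugates and many drugs, and lies beside Slc22a6 on chromosome 1. It had 9.32, 10.13 and 8.96 on the PEC-enriched arrays, against 9.15, 7.76 and 8.67 on the PEC-deprived arrays. PEC-deprived replicate 1 lay above PEC-enriched replicate 3, so the groups overlapped. The log2 fold change was 0.95 (standard error 0.384, limma adjusted p = 0.439). In RefSeq, the annotated span of Slc22a25 overlaps both Slc22a6 and Slc22a8, and whether their probes could share transcripts was not tested.

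Slc22a7, which encodes OAT2, was the 1 member whose mean was lower in PEC-enriched isolates. Its values were 5.86, 5.60 and 6.07 on the PEC-enriched arrays, against 6.08, 5.98 and 5.72 on the PEC-deprived arrays. The groups were interleaved, with a log2 fold change of -0.09 (95% interval -0.43 to 0.25, limma adjusted p = 0.918). Without PEC-enriched replicate 2 the sign turned, to 0.0356. The gene Crip3 overlaps Slc22a7 in RefSeq.

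Slco4c1 encodes OATP4C1, a basolateral carrier of digoxin and thyroid hormone. It had 4.59, 4.50 and 4.41 on the PEC-enriched arrays, against 4.39, 4.30 and 4.31 on the PEC-deprived arrays. The groups did not overlap and were 0.0195 apart. The difference was 0.17 on the log2 scale (95% interval -0.04 to 0.38, limma adjusted p = 0.617).

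The basolateral cation carrier Slc22a2, or OCT2, takes up metformin and other organic cations. Its log2 expression was 7.74, 8.16 and 7.52 on the PEC-enriched arrays, against 7.51, 6.78 and 7.21 on the PEC-deprived arrays. The groups did not overlap, with a gap of 0.00378. PEC-enriched isolates were higher by 0.64 on the log2 scale, or 1.56-fold (standard error 0.215, limma adjusted p = 0.35).

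Slc47a1 encodes MATE1, the apical proton exchanger that passes organic cations into the fluid. Its values were 7.51, 8.69 and 7.78 on the PEC-enriched arrays, against 7.66, 6.32 and 6.84 on the PEC-deprived arrays. PEC-deprived replicate 1 lay above PEC-enriched replicate 1. The log2 fold change of 1.05, or 2.08-fold, was the largest of the members (standard error 0.38, 95% interval 0.18 to 1.93, limma adjusted p = 0.373). Within the PEC-deprived group alone the arrays spanned 1.34.

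Of the apical anion carriers, Slc22a12 encodes URAT1, which reabsorbs urate. It had 7.58, 7.92 and 7.88 on the PEC-enriched arrays, against 7.67, 6.80 and 7.09 on the PEC-deprived arrays. PEC-deprived replicate 1 lay above PEC-enriched replicate 1, and the other PEC-deprived arrays lay below every PEC-enriched array. PEC-enriched isolates were higher by 0.60 (standard error 0.212, limma adjusted p = 0.363).

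Abcc2 encodes MRP2, an ATP-driven pump for glutathione and glucuronide conjugates. It had 6.62, 6.65 and 6.46 on the PEC-enriched arrays, against 6.67, 6.26 and 6.38 on the PEC-deprived arrays. PEC-deprived replicate 1 was the highest of all 6 arrays. The isolates differed by 0.14 on the log2 scale (95% interval -0.15 to 0.43, limma adjusted p = 0.806).

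**Figure D1:**
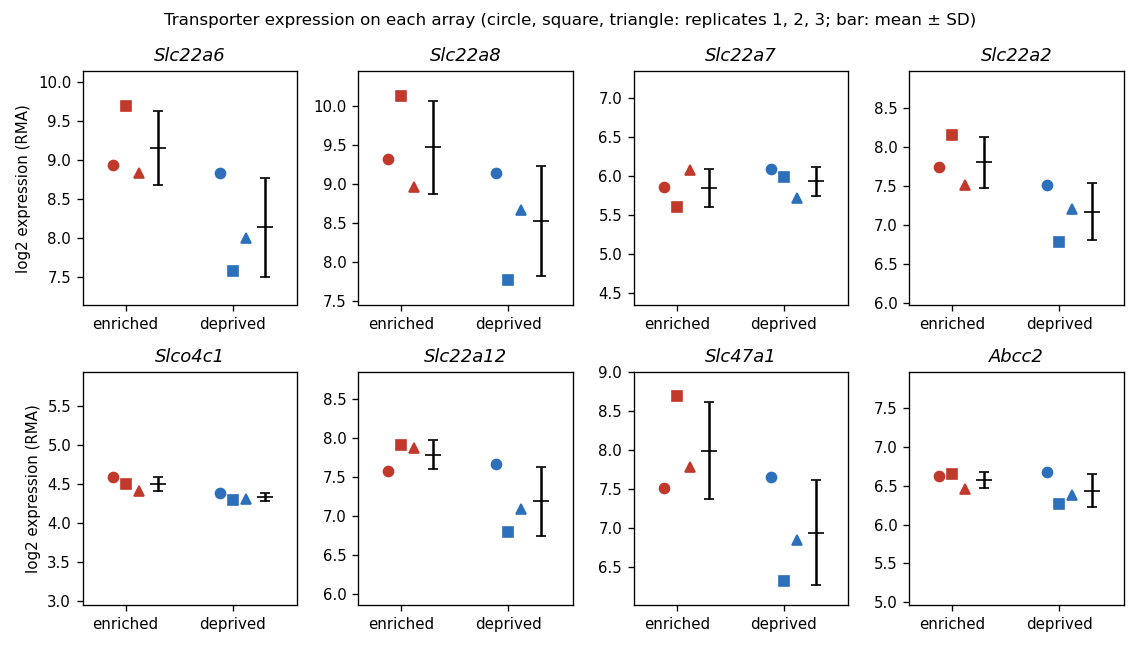
log2 expression (y axis) of the 8 measured transporters in PEC-enriched isolates (red, left) and PEC-deprived isolates (blue, right); each symbol is 1 array and the black bar is the mean ± SD of 3 arrays, and every panel spans 3 log2 units. PEC-deprived replicate 1 (circle) is the highest PEC-deprived array in all 8 panels and lies above at least 1 PEC-enriched array in 5 of them.

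PEC-enriched means were above PEC-deprived means for 7 of the 8 members and below for 1, where 44.8% of all genes were above. The median log2 fold change was 0.62, beside -0.02 over all genes. In limma, 0 of 8 had an adjusted p under 0.01 (0% of all genes). A regularised Bayesian test, in which the group variances are combined with those of probesets of like level, also called 0 of 8, beside 1.41% of all genes called higher. A second form of it with another variance prior, added after results of the first had been seen, called 0 of 8 too (0.6% of all genes higher). At an unadjusted p under 0.05 in limma, 5 of 8 were higher and 0 lower, where 7.96% of all genes were higher and 5.65% lower. The 5 were Slc22a2, Slc22a6, Slc22a8, Slc22a12 and Slc47a1. The groups did not overlap in 3 of 8, Slc22a2, Slc22a6 and Slco4c1, all of them higher in PEC-enriched isolates (9.68% of all genes), and the gap in each was under 0.02. For a single gene, an exact permutation test of 3 arrays against 3 cannot go below p = 0.1, two-sided, and gave that value for these 3. A mean more than 2-fold higher was seen for Slc22a6 and Slc47a1, 2 of 8, beside 0.965% of all genes.

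**Figure D2:**
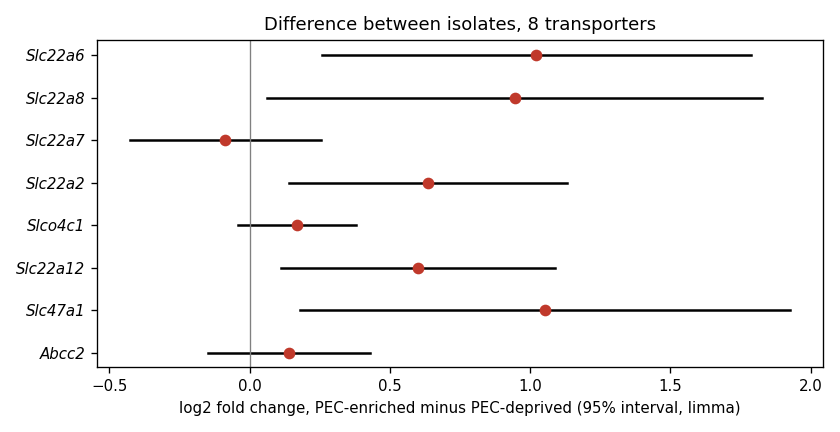
log2 fold change of each transporter (points; PEC-enriched minus PEC-deprived) with its 95% interval from limma (lines), without adjustment for the number of genes. The intervals of Slc22a7, Slco4c1 and Abcc2 include 0, and those of the other 5 lie above it, down to 0.06 for Slc22a8.

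The 3 members with intervals that include 0, Slc22a7, Slco4c1 and Abcc2, were also the 3 whose mean lay below the median level of all probesets. Whether weak signal holds down their fold changes was not tested. Response differences between members were compared in 5 pairs by the exact permutation test on the difference between both genes on each array. The pairs were chosen after the values were seen. Slc22a6 exceeded Abcc2 by 0.88 in log2 fold change, with exact p = 0.1, the smallest value possible, and adjusted p = 0.5 over the 5 pairs. Slc22a8 exceeded Slco4c1 by 0.78 (exact p = 0.3). For Slc22a6 and its neighbour Slc22a8, the difference was 0.08 (exact p = 0.8). For the cation pair, the log2 fold change of Slc22a2 was below that of Slc47a1, with a difference of -0.42 (exact p = 0.2), and Slc22a8 exceeded Slc22a12 by 0.34 (exact p = 0.4). With 3 arrays against 3 this test cannot reach p under 0.05, so it leaves undecided whether these members differ. For Slc22a6 minus Abcc2, relative to its mean over the 6 arrays, the values were 0.17, 0.91 and 0.23 on the PEC-enriched arrays, against 0.02, -0.82 and -0.52 on the PEC-deprived arrays. That these groups did not overlap is the same fact as the exact permutation p of 0.1, not a further result.

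The members shared an order of arrays within the PEC-deprived group. In 7 of 8 the PEC-deprived arrays ran replicate 1, 3 and 2 from high to low, an order found in 20.3% of all genes and in 23 of 25 proximal tubule markers. The exception was Slc22a7. In 7 of 8 members, and in 21 of 25 proximal tubule markers, the range within the PEC-deprived group exceeded the absolute log2 fold change. The share of all genes with such a range was not counted, so it cannot be called a trait of these genes. Without PEC-deprived replicate 1, the log2 fold change of Slc22a6 was 1.37, that of Slc22a8 1.26, that of Slc22a12 0.84 and that of Abcc2 0.26. Without PEC-deprived replicate 2, the value of Slc22a8 was 0.56, that of Slc22a12 0.41 and that of Abcc2 0.05. Without PEC-enriched replicate 2, that of Slc47a1 was 0.70. No member passed in any of these fits.

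Proximal tubule genes had higher means on the same arrays. Of the 25 markers measured, none of which is a member, 25 were above in PEC-enriched isolates. Their median was 1.01 on the log2 scale, and 24 had an unadjusted p under 0.05 in limma. The brightest were Lrp2, the endocytic receptor megalin (log2 fold change 0.36), its adaptor Dab2 (0.24) and the phosphate carrier Slc34a1 (1.00). In limma, 0 of the 25 had an adjusted p under 0.01. The list of differential genes that the study chose on these arrays holds 4 of the 25 proximal tubule markers. It holds 7 of the parietal cell and 7 of the thick ascending limb markers too. Of the distal tubule and collecting duct markers it holds 5, and of the endothelial markers 2. These marker lists are therefore not independent of the study's list, which holds 0 of the 8 transporters. Relative to their means over the 6 arrays, the proximal tubule markers averaged 0.28, 0.80 and 0.24 on the PEC-enriched arrays, against 0.11, -0.99 and -0.44 on the PEC-deprived arrays. The transporters averaged 0.16, 0.56 and 0.13 on the PEC-enriched arrays, against 0.13, -0.64 and -0.34 on the PEC-deprived arrays. The highest and the lowest array were thus PEC-enriched replicate 2 and PEC-deprived replicate 2 in both lists. They were so for the parietal cell markers too. The study also saw protein of some parietal cell markers in tubules, so this list does not separate capsule from tubule. Parietal cell markers averaged 0.18, 0.67 and 0.35 on the PEC-enriched arrays, against -0.20, -0.60 and -0.40 on the PEC-deprived arrays. The difference between isolates was 0.56 for the mean of the transporters, 0.88 for that of the proximal tubule markers and 0.80 for that of the parietal cell markers. Markers of the distal tubule and collecting duct had higher means too, 10 of 11 (median 0.75), and 10 had an unadjusted p under 0.05 in limma. Relative to their means they averaged 0.55, 0.35 and 0.39 on the PEC-enriched arrays, against -0.04, -0.65 and -0.61 on the PEC-deprived arrays. The part of tubule and capsule RNA in the transporters' differences was not tested.

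**Figure D3:**
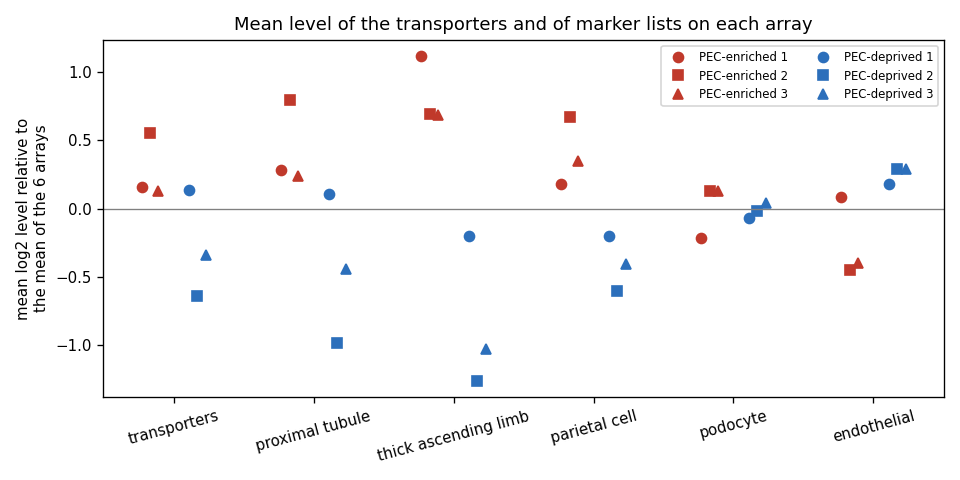
Mean log2 level of the 8 transporters and of 5 marker lists (x axis) on each array, each gene taken relative to its mean over the 6 arrays (y axis); red symbols are PEC-enriched and blue symbols PEC-deprived arrays. PEC-deprived replicate 1 stands at 0.13 for the transporters, beside 0.16 and 0.13 on PEC-enriched replicates 1 and 3, whereas for the thick ascending limb it stands at -0.20, below the PEC-enriched arrays.

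Other carriers of the same families did not all have higher means. Of 10 further SLC22 genes measured, 6 were above and 4 below in PEC-enriched isolates (median 0.05), where 44.8% of all genes were above. In limma, 4 had an unadjusted p under 0.05, all above. Most of the 10 had group means below every array median. The furthest from 0 were Slc22a25 at 1.09 (limma adjusted p = 0.276), which the study lists among its differential genes on these arrays, Slc22a23 at 0.74 (adjusted p = 0.247) and Slc22a22, a prostaglandin carrier, at 0.54 (adjusted p = 0.448). Slc22a25 had 7.31, 7.85 and 6.88 on the PEC-enriched arrays, against 6.78, 5.73 and 6.27 on the PEC-deprived arrays, with no overlap. The regularised Bayesian test called it higher (adjusted p = 0.00696).

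Of 12 further SLCO carriers, 3 were above and 9 below (median -0.08), where 44.8% of all genes were above. All but Slco2a1 and Slco3a1 had group means below every array median. Whether weak signal holds down their fold changes was not tested. Slco2a1, the prostaglandin transporter, stood at -0.50 (limma adjusted p = 0.733), Slco3a1 at -0.46 (adjusted p = 0.433) and Slco1a6 at 0.25 (adjusted p = 0.73). Slco2a1 had 9.31, 10.70 and 10.25 on the PEC-enriched arrays, against 10.99, 10.14 and 10.61 on the PEC-deprived arrays, so its groups overlapped. Endothelial markers had lower means on the same arrays, 11 of 11, with a median of -0.50, and their part in these values was not tested.

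The 11 other efflux carriers had a median of 0.08, with 8 higher and 3 lower means. Abcg2, or BCRP, an ATP-driven pump that also carries urate, had 7.48, 8.22 and 7.33 on the PEC-enriched arrays, against 7.22, 6.41 and 6.64 on the PEC-deprived arrays. Its groups did not overlap, and the log2 fold change was 0.92 (standard error 0.27, limma adjusted p = 0.297). Abcc4, or MRP4, an apical pump for anions, stood at 0.36 (adjusted p = 0.327) and Abcb1b, a P-glycoprotein, at 0.26 (adjusted p = 0.394). Slc47a2, the paralog that neighbours Slc47a1 on chromosome 10, had a log2 fold change of 0.15 (adjusted p = 0.721).

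Partners of the transporters in dicarboxylate and urate handling all had higher means, 5 of 5 measured, with a median of 0.87. Slc13a3, or NaDC3, the basolateral sodium-coupled dicarboxylate carrier, had 9.70, 10.15 and 9.82 on the PEC-enriched arrays, against 9.53, 7.94 and 8.72 on the PEC-deprived arrays. The groups did not overlap, and its log2 fold change was 1.16 (standard error 0.345, limma adjusted p = 0.304). The study lists this gene too, and the regularised Bayesian test called it higher (adjusted p = 0.00681). Its apical relative Slc13a2 stood at 0.34 (adjusted p = 0.528). The phosphate and urate carriers Slc17a1 and Slc17a3 stood at 0.87 (adjusted p = 0.351) and 1.09 (adjusted p = 0.327), and the monocarboxylate carrier Slc5a8 at 0.20 (adjusted p = 0.618).

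Among regulators and scaffolds, 4 of 5 measured had a higher mean. Hnf4a, a nuclear receptor of the proximal tubule that the study lists as differential, had 8.98, 9.38 and 8.83 on the PEC-enriched arrays, against 8.67, 7.49 and 8.09 on the PEC-deprived arrays, with a log2 fold change of 0.98 (limma adjusted p = 0.281). Its relative Hnf4g stood at 0.54 (adjusted p = 0.412). Pdzk1, an apical scaffold that binds URAT1 and other carriers, had 9.06, 9.60 and 9.09 on the PEC-enriched arrays, against 8.80, 7.29 and 8.02 on the PEC-deprived arrays. Its log2 fold change was 1.21 (adjusted p = 0.279), and the study lists it as well. The scaffold Nherf1 stood at 0.31 (adjusted p = 0.442), and Nherf2 at -0.32 (adjusted p = 0.26), with every PEC-enriched array below every PEC-deprived array. In limma none of these genes passed. The regularised Bayesian test called Hnf4a (adjusted p = 0.00768) and Pdzk1 (adjusted p = 0.00515) higher.

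**Figure D4:**
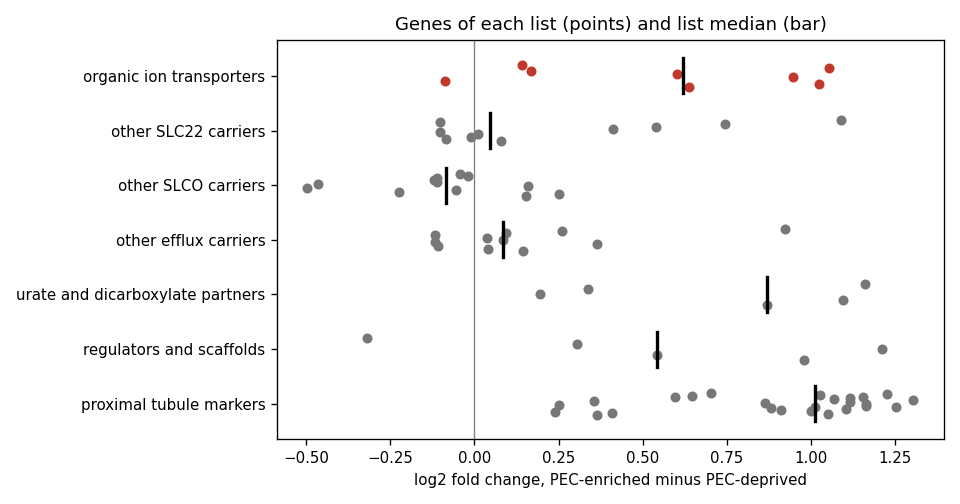
log2 fold change (x axis; PEC-enriched minus PEC-deprived) of each gene (points) in the 8 transporters (red) and in 6 related lists (grey), with the list median as a black bar. The medians run from -0.08 for other SLCO carriers to 1.01 for proximal tubule markers, with the transporters at 0.62.

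Genes with the array profile closest to the mean profile of the transporters were sought among all other genes, by the root mean square distance over the 6 arrays on the log2 scale. The closest were Aldh6a1, a mitochondrial dehydrogenase of valine breakdown (distance 0.0336), Fmo4, a flavin monooxygenase (0.0343), Naprt, an enzyme of NAD synthesis (0.0406), Wdr86 (0.0434) and the heparan sulfate proteoglycan Gpc4 (0.0525). The median distance over all other genes was 0.407. Of the members themselves, Slc22a2 lay closest to their mean, at 0.092, and Slc22a7 furthest, at 0.471. With 6 arrays in 2 groups, such likeness is a description of these arrays.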

How the data were processed

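Gene expression was measured on 6 Affymetrix rat arrays, 3 of PEC-enriched and 3 of PEC-deprived isolates. The authors adjusted the background, quantile normalized log-transformed intensities and summarized probesets with RMA. The submitters' processing notes name RMA too, without a version. Deposited were log2 expression values per probeset and array, from 2.13 to 13.87. The base was not stated and was taken from this range. No scanner file or detection call was analysed here.

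Of 29215 probesets, 15310 carried 1 symbol of the platform annotation, 323 several and 13582 none. Symbols were updated through Entrez IDs to RefSeq (GRCr8), where 15279 of the 15310 matched. Groups were compared by a two-sided limma fit without covariates (limma 3.58.1, R 4.3.3, functions lmFit and eBayes). P-values were adjusted by Benjamini-Hochberg over all probesets, and the threshold was 0.01, as in the methods, which name a Bayesian test. A regularised Bayesian test of that kind (prior weight 10, window of 101 probesets) was an alternative, and both were tested on simulated data. Its variance prior was the squared mean SD of the window. A second form with the mean variance was added after results of the first on these arrays had been seen, because the first called many unchanged probesets in simulated data. Both forms called more of them than the threshold allows, while limma stayed near it. Other alternatives were a replicate block, an intensity trend, array weights, only bright or 1-symbol probesets, median centring, cyclic loess, a threshold of 0.05, averaging the probesets of each gene and leaving out each array. Where labels do not give separate animals for both isolates, p-values measure the spread between these arrays.

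The members and all lists were chosen with earlier results of these data known. Named genes were all members, all measured partners and regulators, the 3 largest absolute log2 fold changes of each other carrier list, the 3 brightest proximal tubule markers and the 5 genes closest in array profile. Motifs and the compared pairs were chosen after the values were seen. Slc47a2 was named outside this rule. Some listed items are not reported here. The authors' own fold changes were not used. Figures were drawn with matplotlib 3.10.9.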

Additional observations from a re-analysis of the deposited data

How the results depend on the processing

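Under 11 alternative settings and with each of the 6 arrays left out, 0 of the 8 transporters were called in every case. Over the 11 settings the log2 fold change of Slc22a6 ran from 0.96 to 1.03, with limma or regularised adjusted p between 0.0135 and 0.431, and that of Slc47a1 from 0.96 to 1.06, with adjusted p between 0.0236 and 0.486. The median of the members moved to 0.95 with only probesets above the median level, a setting that drops Slc22a7, Slco4c1 and Abcc2 and leaves 5 members. With single arrays left out, the median ran from 0.43 (without PEC-deprived replicate 2) to 0.83 (without PEC-deprived replicate 1), and the count of members called stayed at 0. The log2 fold change of Slc22a7 ran from -0.20 without PEC-enriched replicate 3 to 0.0356 without PEC-enriched replicate 2, where its sign reversed. Over all 29215 probesets the regularised Bayesian test called 334, its second form with a mean variance prior, added after the data were seen, called 119, the fit without PEC-deprived replicate 1 called 1, and every other setting 0. The replicate numbers are shared by both isolates, and whether they mark pairs could not be told from these arrays. Deviations of same-numbered arrays correlated only weakly, by -0.0287, 0.0519 and 0.1. PEC-enriched replicates 2 and 3 correlated best with their own number, and PEC-enriched replicate 1 did not. In the regularised test the lowest adjusted p values of members were 0.0135 for Slc22a6, 0.0236 for Slc47a1, 0.0377 for Slc22a2 and 0.042 for Slc22a8. In its second form the lowest was 0.0401, for Slc22a6. The share of all genes with values this low was not counted for either form. With the replicate number as a block the median was 0.62 and 0 members were called. Signal over background, and so a floor for the weak probesets, could not be assessed.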
